A study of Mus musculus with 6 samples.

Results

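The genes of fatty acid oxidation and ketone metabolism examined here numbered 30. They were picked by gene symbol from a list that covered the carnitine shuttle, mitochondrial and peroxisomal beta-oxidation, the making and use of ketone bodies, and regulation by PPAR alpha. The count table held 55487 genes, of which 17165 had enough counts to be tested, and 29 of the 30 genes were among them. The exception was Cpt1b, the muscle form of carnitine palmitoyltransferase 1, which had between 0 and 2 counts in each library. RNA sequencing had been done on mammary epithelial cells (MECs) of 10-week-old female BALB/c mice, with 3 wild-type and 3 IL-21isoTg libraries, each called a mouse here as in the labels. IL-21isoTg mice carry a transgene for a membrane-bound isoform of interleukin 21 whose expression was directed to T cells. They were virgins of randomized estrous stage. MECs were what remained after cells bearing CD45, CD31 or CD140a, the surface markers of leukocytes, endothelium and fibroblasts, had been removed with magnetic beads. The comparison asks what differs in these cells before mammary tumors appear.

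Fatty acids enter the cell through carriers such as CD36 and are activated to acyl-CoA by acyl-CoA synthetases. Long-chain acyl-CoA crosses into the mitochondrion through the carnitine shuttle, where each turn of beta-oxidation shortens it through a dehydrogenation, a hydration, another dehydrogenation and a thiolytic cleavage, with the first electrons passed on by the electron transfer flavoprotein. Peroxisomes shorten very long chains and dicarboxylic acids with enzymes of their own. The liver turns part of the resulting acetyl-CoA into ketone bodies, and most other tissues burn ketone bodies through OXCT1. PPAR alpha, with its coactivator PGC-1 alpha, is the classical switch for these genes during fasting. The mammary epithelium lies in a fat pad and is best known for making fat during lactation rather than for burning it.

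Library totals were between 15902886 and 25719244 counts. Il21 checked the labels: the wild-type libraries had 0, 0 and 37 counts and the IL-21isoTg libraries 795, 216 and 131, so wild-type mouse 3 was not free of it. Carry-over from another library and expression cannot be told apart for these 37 counts, and which cells gave the Il21 counts of any library was not tested. All 10 luminal and all 6 basal epithelial marker genes passed the filter, with summed levels of 5239 to 8646 and 1329 to 2642 CPM (counts scaled to library size with TMM factors, the unit of every level below). Salivary gland genes took 5.15% to 42.7% of the counts, the most in IL-21isoTg mouse 3. Summed adipocyte markers lay between 169 and 213 CPM in wild-type mice and between 245 and 510 CPM in IL-21isoTg mice, summed fibroblast markers between 1963 and 3448 CPM and between 4315 and 4970 CPM. The lipases Lipe and Pnpla2 made up most of the adipocyte sum in each mouse. In a bulk sample, fewer cells of a type and less RNA per cell cannot be told apart.

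The upstream sequences of 6 starts are shown as background. RefSeq gave a start for 24 of the 30 genes (build GRCm38.p6), and the 250 bases before each start were searched on both strands. The PPAR response element in its DR1 form, AGGTCANAGGTCA, was in none of the 24 and in 0.0335% of all 32851 promoters. An exact form this rare cannot set 24 genes apart by its absence. Sites that vary from it or lie farther from the start were not searched. The half-site AGGTCA, which can overlap the full element, was in 4 of the 24 (Acadm, Acadvl, Cpt1a and Echs1) and in 14% of all promoters. A STAT-type palindrome, TTCNNNGAA, was in 3 of the 24 (Cpt2, Hadha and Hadhb) and in 7.02% of all promoters. The windows of Hadha and Hadhb share 228 bases, so both may hold the same palindrome. A CCAAT box was in 9 of the 24 and in 33.8% of all promoters. Counts out of the 24 are by gene, and percentages are by promoter. The first 3 lines give the mitochondrial genes whose half-site lies less than 100 bases from the start, with the half-site in capitals. The fourth line gives the stretch between the divergent starts of Hadha and Hadhb, with nothing in capitals. The last pair gives the genes with the largest differences in value between the genotypes, with the CCAAT box in capitals. Each run is written 5′ to 3′ on the gene's own strand and leaves out bases that GENCODE M21 places in an exon.
Cpt1a, chr19:3323151-3323284, plus strand: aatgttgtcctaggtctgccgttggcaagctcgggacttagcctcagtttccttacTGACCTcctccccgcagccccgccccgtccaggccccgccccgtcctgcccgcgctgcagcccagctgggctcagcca
Acadvl, chr11:70015429-70015578, minus strand: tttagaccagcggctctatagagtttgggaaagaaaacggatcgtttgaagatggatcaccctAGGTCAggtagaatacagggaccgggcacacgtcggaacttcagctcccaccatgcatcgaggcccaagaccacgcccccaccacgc
Echs1, chr7:140116477-140116571, minus strand: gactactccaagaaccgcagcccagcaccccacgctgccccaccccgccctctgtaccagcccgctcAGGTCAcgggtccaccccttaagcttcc
Hadhb, chr5:30155163-30155247, plus strand: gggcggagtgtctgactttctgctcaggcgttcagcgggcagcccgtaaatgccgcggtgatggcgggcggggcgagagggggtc
Ehhadh, chr16:21787835-21788084, minus strand: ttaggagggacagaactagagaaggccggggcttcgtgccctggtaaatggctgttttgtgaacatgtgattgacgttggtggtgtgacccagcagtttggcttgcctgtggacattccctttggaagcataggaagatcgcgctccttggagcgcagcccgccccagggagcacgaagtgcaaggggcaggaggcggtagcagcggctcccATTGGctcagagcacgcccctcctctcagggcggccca
Pdk4, chr6:5496310-5496528, minus strand: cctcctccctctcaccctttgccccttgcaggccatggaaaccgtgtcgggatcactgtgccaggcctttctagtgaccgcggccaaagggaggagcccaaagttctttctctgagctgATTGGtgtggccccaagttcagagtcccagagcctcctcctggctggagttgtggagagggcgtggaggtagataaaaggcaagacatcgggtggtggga

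The enzymes and carriers of fatty acid oxidation stood at nearly the same level in both genotypes. Summed over 25 enzymes and carriers, the level was 1675, 1684 and 1392 CPM in wild-type mice and 1601, 1578 and 1637 CPM in IL-21isoTg mice, a mean of 1584 ± 166 against 1605 ± 29.6 (SD, n = 3 each). The IL-21isoTg values all lay inside the wild-type range. Of the 24 that could be tested, 23 had a log2 fold change (IL-21isoTg over wild-type) within 0.5 of 0, which is 95.8%, beside 77.6% of all genes tested and 88.1% of the 10032 genes at or above the lowest enzyme's mean level. Across all 29 tested genes the median log2 fold change was 0.02, with 15 genes above and 14 below 0, beside a median of −0.02 and 47.9% above 0 over all genes tested. No gene of the group reached an adjusted p under 0.05 by edgeR's quasi-likelihood test, and 0% of all genes did. The DESeq2 Wald test, limma-voom and edgeR's likelihood ratio test likewise gave 0 of the group. At an unadjusted p under 0.05, the group held 1 gene, Ehhadh, which is 3.45% of the 29 beside 5.82% of all genes tested in either direction and 3.19% in the higher one. In 1 gene, Acaa1a, the 3 IL-21isoTg values all lay above the 3 wild-type values, again 3.45%, beside 12.1% of all genes without overlap in either direction, 5.54% in the higher and 6.54% in the lower one. With 1 mouse left out, which leaves fewer values to overlap, genes without overlap numbered 1 to 6, the most without IL-21isoTg mouse 3, and those at an unadjusted p under 0.05 numbered 0 to 2. Without IL-21isoTg mouse 3 this was 20.7% without overlap, beside 22.1% of all genes, and across the 6 settings 17.9% to 27.6% of all genes had no overlap and 3.04% to 8.88% an unadjusted p under 0.05.

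**Figure D1:**
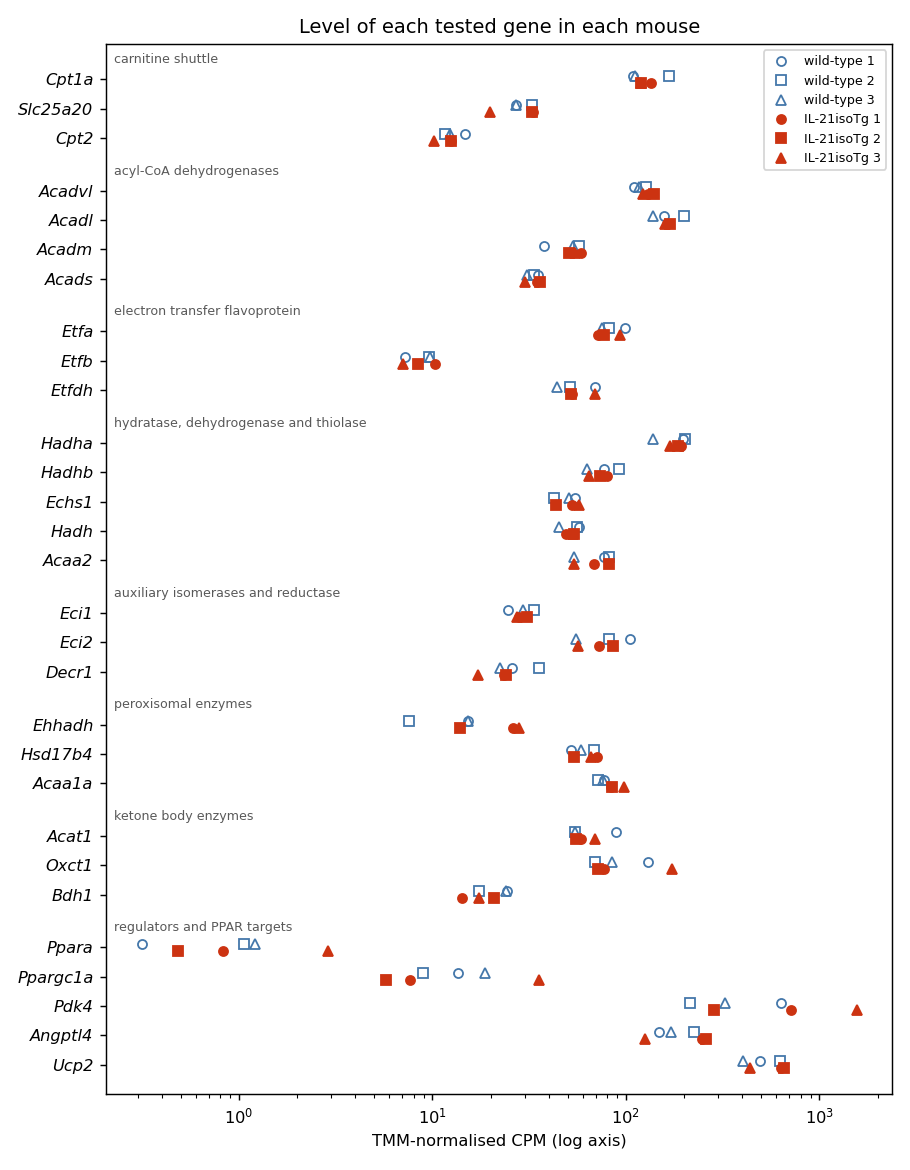
Level of each of the 29 tested genes in each of the 6 mice, as TMM-normalised CPM on a log axis, with wild-type mice as open and IL-21isoTg mice as filled symbols and genes grouped by role. The points of the mitochondrial enzymes lie close together and overlap between the genotypes, while Pdk4, Ppargc1a and Ppara spread widely, with the highest value of each in IL-21isoTg mouse 3.

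The carnitine shuttle was led by Cpt1a, the liver-type carnitine palmitoyltransferase that controls entry of long-chain acyl groups into the mitochondrion. Cpt1a was at 109, 166 and 111 CPM in wild-type mice and at 134, 119 and 119 CPM in IL-21isoTg mice. Wild-type mouse 2 was the highest of the 6, and the groups overlapped. The log2 fold change of −0.05 had an SE of 0.20 and a 95% interval from −0.52 to 0.41 (edgeR adjusted p = 0.970). Slc25a20, the carrier that exchanges acylcarnitine for carnitine across the inner membrane, ranged from 19.8 to 33.3 CPM, with its lowest value in IL-21isoTg mouse 3. Cpt2, which reforms acyl-CoA inside the mitochondrion, ranged from 10.2 to 14.7 CPM. Both had log2 fold changes within 0.14 of 0. Per kilobase of transcript, Cpt1a averaged 29.3 CPM, Slc25a20 16.1 CPM and Cpt2 5.19 CPM, and the ranges of the 6 mice did not overlap between any of these. Cpt1b, at 0 to 2 counts, was below the floor of 3 counts in every library. It shares 81.4% of its exon bases with Gm44502 on the same strand, so reads of it could have been left uncounted, and its level cannot be read from these counts.

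Acyl-CoA dehydrogenases carry out the first step of each turn, each for its own chain length. Acadl, the long-chain enzyme, had the highest level per kilobase of the 4. It was at 157, 199 and 138 CPM in wild-type mice and 163, 169 and 160 CPM in IL-21isoTg mice. The IL-21isoTg mice sat inside the wild-type range, and the log2 fold change was −0.01 (SE 0.18, 95% interval −0.42 to 0.41). The very-long-chain enzyme Acadvl was at 110, 127 and 117 CPM against 130, 141 and 123 CPM, with 1 IL-21isoTg mouse below the highest wild-type value and a log2 fold change of 0.15 (SE 0.15). Acadvl shares 42.9% of its exon bases with Dvl2 on the opposite strand, and whether reads were counted by strand is not given in the sources used here. Acadm, the medium-chain enzyme, ranged from 37.6 to 58.4 CPM, and Acads, the short-chain enzyme, from 30.03 to 36.0 CPM, a ratio of 1.199 between the highest and lowest mouse. Per kilobase the order was Acadl at 85.9 CPM, Acadvl at 57.5, Acadm at 25.4 and Acads at 17.9. The ranges of Acadm and Acads touched, at 18.4 to 28.5 CPM per kilobase and 16.1 to 19.3 CPM per kilobase, and those of Acadl and Acadvl did not overlap.

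Electrons from that step pass to the electron transfer flavoprotein, made of subunits encoded by Etfa and Etfb, and on to the respiratory chain through Etfdh. Etfa was at 99.5, 81.9 and 75.5 CPM in wild-type mice and at 71.9, 76.7 and 93.7 CPM in IL-21isoTg mice. The highest values of each genotype were in wild-type mouse 1 and IL-21isoTg mouse 3, and the groups overlapped (log2 fold change −0.08, SE 0.18). Etfdh had its highest values in the same mice, at 69.5 and 68.9 CPM, with 44.0 to 52.4 CPM in the other 4. Etfb ran the other way, with its lowest values there, at 7.26 and 7.09 CPM, against 8.41 to 10.4 CPM elsewhere. Etfb shares 53% of its exon bases with Gm45233 on the same strand, so part of its reads could have been left uncounted or assigned to the other gene.

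The remaining steps of the spiral are run by the trifunctional protein, whose subunits are encoded by Hadha and Hadhb, and by the shorter-chain enzymes Echs1, Hadh and Acaa2. Acaa2, the mitochondrial thiolase, was at 77.3, 81.4 and 54.2 CPM in wild-type mice and 68.4, 81.9 and 53.7 CPM in IL-21isoTg mice. The genotypes spanned almost the same range, with mouse 3 lowest in each, and the log2 fold change was −0.06 (SE 0.22, 95% interval −0.57 to 0.45). Hadha, chosen for display after its values were seen, was at 197, 203 and 139 CPM against 194, 187 and 169 CPM. Hadhb was at 77.5, 91.7 and 62.6 CPM against 79.7, 73.3 and 64.2 CPM. The subunit genes have divergent starts 273 bases apart on chromosome 5, between which lies the stretch printed above. Their ratio in CPM stayed between 2.22 and 2.63 in the 6 mice (mean 2.43 ± 0.18, SD, n = 6). No other gene pair was set beside it, so a steady ratio cannot be called particular to this pair. A link to the shared stretch was not tested. Hadhb had log2 fold change −0.09 and Hadha 0.03. Echs1, the short-chain hydratase, ranged from 42.5 to 57.4 CPM, and Hadh, the short-chain dehydrogenase, from 45.4 to 57.4 CPM. Per kilobase, Acaa2 at 45.8 CPM and Hadha at 45.1 CPM could not be ranked, since their ranges of 35.4 to 54.0 and 34.6 to 50.6 CPM per kilobase overlapped almost fully.

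Unsaturated fatty acids need further enzymes to move or remove their double bonds. Eci2, an enoyl-CoA isomerase, had the highest level per kilobase of the 3 and was at 105, 82.0 and 55.5 CPM in wild-type mice and at 73.0, 86.0 and 56.3 CPM in IL-21isoTg mice. Mouse 3 of each genotype was lowest, and the groups overlapped (log2 fold change −0.17, SE 0.26). Eci1, the other mitochondrial isomerase, ranged only from 24.7 to 33.3 CPM. Decr1, the dienoyl-CoA reductase, was at 25.9, 35.4 and 22.4 CPM against 23.5, 23.9 and 17.3 CPM, the lowest log2 fold change of the group at −0.37 (SE 0.23, 95% interval −0.90 to 0.16, edgeR adjusted p = 0.816). Its groups overlapped through wild-type mouse 3.

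**Figure D2:**
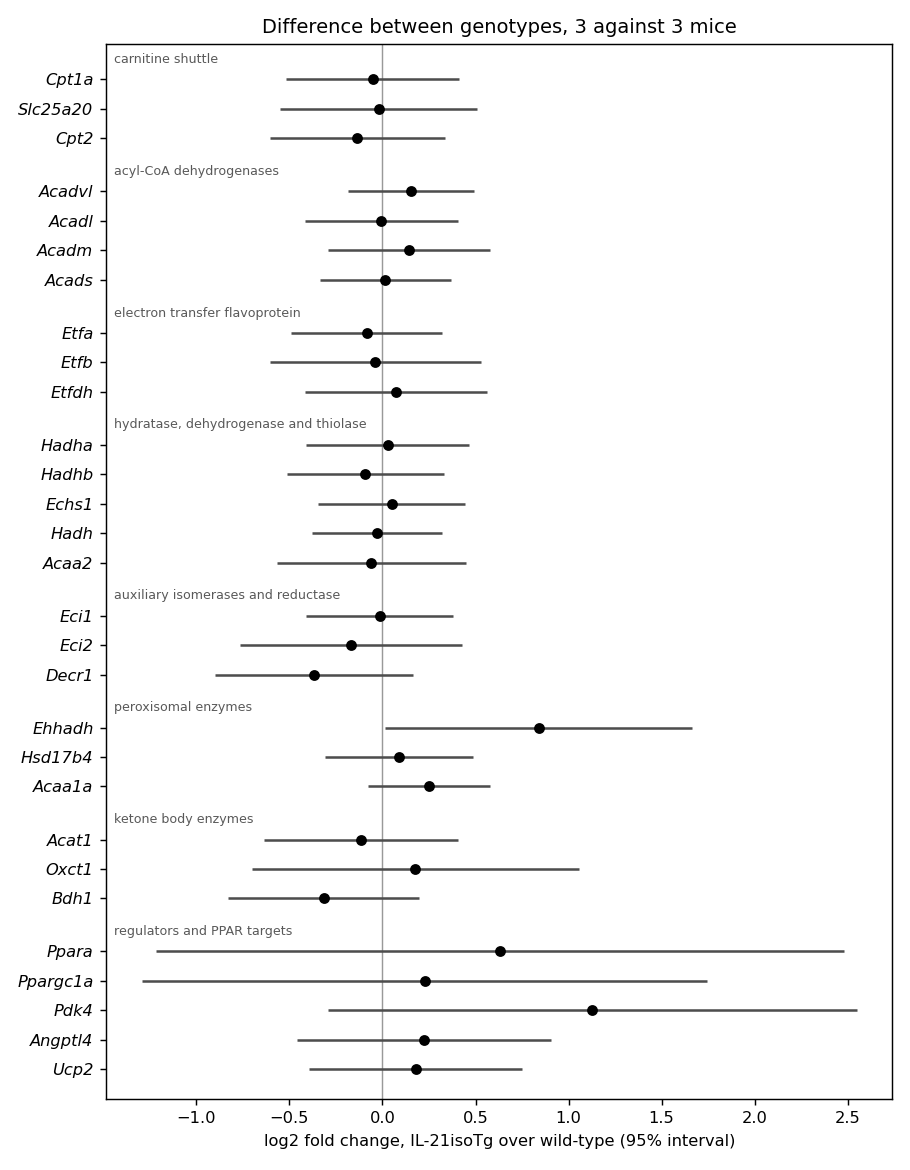
Log2 fold change of IL-21isoTg over wild-type with its 95% interval for each of the 29 tested genes (edgeR, 3 against 3 mice), grouped by role. Intervals of the mitochondrial beta-oxidation enzymes cross 0 and stay within 1 log2 unit, the interval of Ehhadh runs from 0.02 to 1.66, and those of Oxct1, Ppara, Ppargc1a and Pdk4 cross 0 and reach past 1.

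The 1 gene at an unadjusted p under 0.05 in edgeR and the 1 gene without overlap both encode peroxisomal enzymes. Each was 3.45% of the group, below the 5.82% and 12.1% of all genes tested in either direction. Ehhadh, the peroxisomal bifunctional enzyme on chromosome 16 (21761287 to 21787807, minus strand, GENCODE M21 on GRCm38), was at 15.2, 7.59 and 15.2 CPM in wild-type mice and at 26.2, 13.9 and 28.2 CPM in IL-21isoTg mice. IL-21isoTg mouse 2 lay below 2 of the wild-type mice, so the groups overlapped. The log2 fold change was 0.84 (SE 0.36, 95% interval 0.02 to 1.66), with an unadjusted p of 0.0466 in edgeR and an adjusted p of 0.809. Without wild-type mouse 2, wild-type mouse 3, IL-21isoTg mouse 1 or IL-21isoTg mouse 3 the unadjusted p was 0.1197, 0.0516, 0.127 and 0.138, and without wild-type mouse 2 the log2 fold change was 0.58. Acaa1a, the peroxisomal thiolase, was at 77.2, 71.5 and 75.8 CPM against 84.1, 84.9 and 98.3 CPM. All 3 IL-21isoTg mice were above all 3 wild-type mice, by a log2 fold change of 0.25 (SE 0.14, 95% interval −0.08 to 0.58, edgeR adjusted p = 0.809). The exact two-sided permutation p was 0.1, the smallest that 3 against 3 mice can give. Acaa1a has a near-identical paralog, Acaa1b, and how reads shared by both were counted is not given in the sources used here. Hsd17b4, the other bifunctional enzyme of the peroxisome, had a log2 fold change of 0.09 and values between 52.2 and 71.0 CPM. Added up, the 3 genes were at 145, 147 and 150 CPM in wild-type mice and at 181, 153 and 192 CPM in IL-21isoTg mice. Among 16 other peroxisomal genes tested, 6 had log2 fold changes above 0 and 10 below, with a median of −0.07. Groups did not overlap for 1 of these in the higher and 2 in the lower direction, 18.8% beside 12.1% of all genes.

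Ketone body enzymes were represented by Oxct1, which starts ketone use, Acat1, the acetoacetyl-CoA thiolase, and Bdh1, which interconverts the ketone bodies. Oxct1 was at 130, 69.3 and 85.2 CPM in wild-type mice and at 77.0, 71.9 and 174 CPM in IL-21isoTg mice. A single mouse of each genotype, wild-type mouse 1 and IL-21isoTg mouse 3, stood above the other 4, and the groups overlapped (log2 fold change 0.18, SE 0.38, 95% interval −0.70 to 1.05). Without IL-21isoTg mouse 3 the log2 fold change of Oxct1 turned to −0.34. Acat1 had its highest values in the same pair of mice, at 89.1 and 69.2 CPM, against 54.3 to 58.7 CPM elsewhere. Bdh1 was at 24.2, 17.4 and 24.0 CPM against 14.3, 20.9 and 17.4 CPM, with a log2 fold change of −0.32 (SE 0.22, edgeR adjusted p = 0.827).

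Of the 5 regulators and PPAR targets, Ppara, Pdk4 and Ppargc1a spread more between mice than any of the enzymes did. The ratio of the highest to the lowest mouse was 9.16 for Ppara, 7.31 for Pdk4 and 6.16 for Ppargc1a. It was only 2.05 for Angptl4 and 1.63 for Ucp2. Over the 24 enzymes and carriers this ratio had a median of 1.46 and a maximum of 3.71, beside a median of 1.97 over all genes tested. Pdk4, the kinase that shuts pyruvate dehydrogenase and so spares glucose, was at 632, 213 and 326 CPM in wild-type mice and at 716, 286 and 1560 CPM in IL-21isoTg mice. IL-21isoTg mouse 3 was the highest by far, IL-21isoTg mouse 2 was below 2 of the wild-type mice, and the groups overlapped. The log2 fold change was 1.13 (SE 0.61, 95% interval −0.29 to 2.55, edgeR adjusted p = 0.809). It was 0.38 without IL-21isoTg mouse 3 and 1.69 without wild-type mouse 1. Per kilobase Pdk4 had the highest mean of the 30 genes, 179 CPM, and Ucp2 the next, 136 CPM, but the range of Pdk4 from 61.3 to 448 CPM per kilobase enclosed that of Ucp2.

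PGC-1 alpha, encoded by Ppargc1a, drives mitochondrial gene expression. Ppargc1a was at 13.6, 8.94 and 18.7 CPM in wild-type mice and at 7.65, 5.77 and 35.5 CPM in IL-21isoTg mice. IL-21isoTg mice 1 and 2 were the lowest of the 6 and IL-21isoTg mouse 3 the highest, so the log2 fold change of 0.23 (SE 0.66, 95% interval −1.29 to 1.75) described none of them. Without IL-21isoTg mouse 3 it was −1.02, with an unadjusted p of 0.0264 and an adjusted p of 0.905 in edgeR. Ppara itself was at 0.316, 1.06 and 1.21 CPM against 0.832, 0.484 and 2.89 CPM, or 7 to 31 counts per library. IL-21isoTg mouse 3 was the highest and wild-type mouse 1 the lowest, the groups overlapped, and the interval of its log2 fold change of 0.63 ran from −1.22 to 2.48. Without IL-21isoTg mouse 3 the value was −0.38.

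Angptl4, a secreted inhibitor of lipoprotein lipase and a common PPAR target, was at 148, 225 and 172 CPM in wild-type mice and at 249, 259 and 126 CPM in IL-21isoTg mice. Here IL-21isoTg mouse 3 was the lowest of the 6 and the other IL-21isoTg mice the highest (log2 fold change 0.22, SE 0.30, 95% interval −0.46 to 0.91). It was 0.49 without IL-21isoTg mouse 3. Ucp2, an uncoupling protein of the inner membrane, was at 496, 628 and 403 CPM against 636, 655 and 437 CPM. In each genotype mouse 2 was highest and mouse 3 lowest, and the groups overlapped (log2 fold change 0.18, SE 0.25, 95% interval −0.40 to 0.75).

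The mice with the highest Pdk4 were also those with the most salivary gland RNA. Over the 6 mice, Pdk4 and the summed level of salivary gland genes, both in log2 CPM, had Pearson's r = 0.943 (exact permutation p = 0.00417, 0.0806 after Benjamini-Hochberg adjustment over 29 genes) and Spearman's rho = 0.943 (exact permutation p = 0.0167, adjusted 0.242). With the mice farthest from the median salivary level left out, r was 0.955. Those were IL-21isoTg mice 2 and 3, so only IL-21isoTg mouse 1 and the wild-type mice remained. Values of r without them, here and below, rest on very few mice and were not tested. Echs1 had r = 0.967 (exact permutation p = 0.00556, adjusted 0.0806) and Ehhadh r = 0.816 (exact permutation p = 0.0375, adjusted 0.352), and without the same mice r was 0.974 and 0.908. No relation of the 29 passed the adjustment. Oxct1 had r = 0.835 and Ppargc1a 0.769 (exact permutation p = 0.0486 and 0.0778, adjusted 0.352 and 0.363), and without those mice r was 0.605 and 0.128. Of the 29 relations 18 were negative, the strongest by r being Slc25a20 at −0.767 (exact permutation p = 0.0722, adjusted 0.363), Angptl4 at −0.749 and Eci1 at −0.744, and without the same mice these were −0.326, −0.282 and −0.891. Within one genotype there were 3 mice, too few for a correlation. With the summed salivary level (log2) as a term in the edgeR fit, the log2 fold change of Pdk4 was 0.55 and that of Ehhadh 0.63, with unadjusted p of 0.0357 and 0.0223 and adjusted p of 0.809 for both, and that of Ppargc1a was −0.47. The part of salivary gland cells in the levels of these genes was not tested beyond this.

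**Figure D3:**
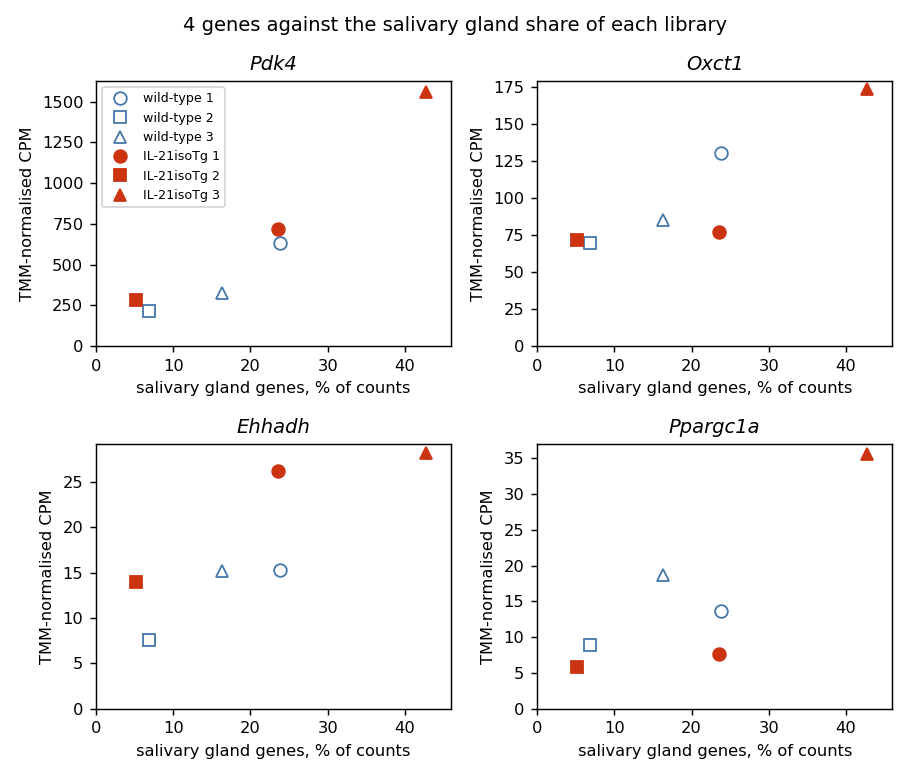
Level of Pdk4, Oxct1, Ehhadh and Ppargc1a in each mouse as TMM-normalised CPM, against the share of the library's counts that fell on salivary gland genes, in percent. IL-21isoTg mouse 3, at 42.7%, has the highest value in each panel, and for Pdk4 the order of the mice nearly follows the share.

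Another 88 genes around the pathway were listed by role, with earlier results of these data known when the list was chosen. Of these, 79 could be tested, and the median log2 fold change was 0.19, with 52 genes above and 27 below 0. None had an adjusted p under 0.05 by edgeR's quasi-likelihood test. At an unadjusted p under 0.05 there were 12 higher and 2 lower in IL-21isoTg mice, 17.7% of the 79 beside 5.82% of all genes tested. By role these were 5 of 12 genes of uptake and activation, 7 of 25 other regulators and 2 of 19 of other mitochondrial beta-oxidation. Other peroxisomal oxidation gave 0 of 16 and other ketone metabolism 0 of 7. Since the list was chosen with results known, its share cannot be read as an enrichment of the oxidation pathway. The count of 14 was 25 without IL-21isoTg mouse 2, when the share of all genes also rose, to 8.88%. It was 10 to 15 without any other single mouse, beside 3.04% to 6.93% of all genes. Groups did not overlap for 11 genes in the higher and 4 in the lower direction, 19% beside 12.1%. Of these, Pex5 and Rxrb (log2 fold changes 0.17 and 0.25) and Abcd3 and Eci3 (−0.16 and −1.05) had an unadjusted p above 0.05 in edgeR. Eci3 averaged only 0.842 CPM. The DESeq2 Wald test and the edgeR likelihood ratio test each gave 6 of the 79 an adjusted p under 0.05. These were Acsl1, Cd36, Cidea, Fabp3, Lpl and Ucp3, all in the higher direction, so these calls rest on the choice of test.

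**Figure D4:**
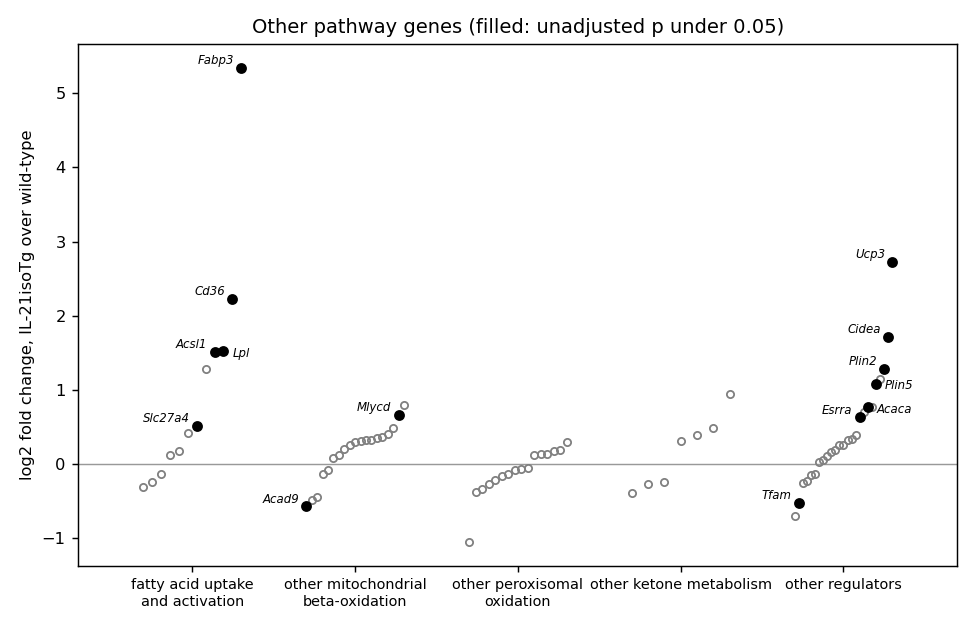
Log2 fold change of IL-21isoTg over wild-type for the 79 tested other genes of the pathway, in 5 groups by role, with genes at an unadjusted p under 0.05 filled and named. Of the 14 filled genes, 5 lie in the uptake and activation group, all above 0, and Acad9 and Tfam are the filled genes below 0.

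Uptake and activation of fatty acids gave 5 of the 14, out of 12 tested. Cd36, the fatty acid translocase, was at 14.5, 48.9 and 18.3 CPM in wild-type mice and at 197, 131 and 53.7 CPM in IL-21isoTg mice. The groups did not overlap, although IL-21isoTg mouse 3 was only just above wild-type mouse 2 (log2 fold change 2.23, SE 0.58, 95% interval 0.89 to 3.56, edgeR adjusted p = 0.774). Fabp3, the heart-type fatty acid binding protein, was at 0.496, 0.336 and 6.61 CPM against 173, 73.9 and 57.6 CPM, and wild-type mouse 3, the wild-type library with Il21 counts, held 147 counts of it where the other wild-type mice held 11 and 7. Carry-over between libraries and expression in that mouse cannot be told apart here. The log2 fold change was 5.34 (SE 1.07, edgeR adjusted p = 0.523), and 7.90 without that mouse (edgeR adjusted p = 0.0433). Lpl, the lipase that frees fatty acids from lipoproteins, was at 29.7, 54.1 and 57.1 CPM against 181, 118 and 105 CPM (log2 fold change 1.52, SE 0.31, edgeR adjusted p = 0.523). Acsl1, an acyl-CoA synthetase, was at 37.2, 62.3 and 44.3 CPM against 208, 125 and 77.7 CPM (log2 fold change 1.51, SE 0.36, edgeR adjusted p = 0.677). For Cd36, Fabp3, Lpl and Acsl1 alike, IL-21isoTg mouse 1 was the highest of its group and mouse 3 the lowest. The very-long-chain synthetase and carrier Slc27a4 was at 25.3, 32.6 and 27.8 CPM against 39.2, 40.9 and 42.2 CPM, with no overlap and little spread inside the IL-21isoTg group (log2 fold change 0.51, SE 0.16, edgeR adjusted p = 0.809).

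Cd36, Lpl and Acsl1 are also known as adipocyte genes and Cd36 as a gene of capillary endothelium, and IL-21isoTg mouse 1 had the highest sum of both marker lists. Of 10 adipocyte markers 6 could be tested, and all 6 had log2 fold changes above 0. The adipocyte hormone Adipoq was at 0, 0.240 and 0.270 CPM in wild-type mice and at 8.61, 0.893 and 0.0933 CPM in IL-21isoTg mice, and Cfd at 0.0451, 0.192 and 3.24 CPM against 132, 11.1 and 1.96 CPM. IL-21isoTg mouse 3 was within the wild-type range for Adipoq and Cfd. On the same list IL-21isoTg mouse 3 was above every wild-type mouse for the lipases Lipe (60.8 CPM, against 42.4 to 46.6 CPM) and Pnpla2 (175 CPM, against 121 to 159 CPM). It was also above them for Lep, at 7 counts against at most 6, and for the summed list. Lipe and Pnpla2 made up most of that sum in each mouse. For Plin1, Plin4, Cidec, Retn and Pck1, IL-21isoTg mouse 3 was not above every wild-type mouse. Summed endothelial markers ranged from 88.4 to 222 CPM in wild-type mice and from 136 to 306 CPM in IL-21isoTg mice, with IL-21isoTg mouse 1 highest. Without IL-21isoTg mouse 1 the log2 fold changes were 1.76 for Cd36, 4.72 for Fabp3, 1.25 for Lpl and 1.08 for Acsl1. The part of adipocytes and endothelium in these differences was not tested otherwise.

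Plin2, the coat protein of small droplets and of the milk fat globule, was at 143, 203 and 172 CPM in wild-type mice and at 538, 527 and 195 CPM in IL-21isoTg mice. IL-21isoTg mouse 3 lay inside the wild-type range and the other IL-21isoTg mice above it (log2 fold change 1.28, SE 0.37, edgeR adjusted p = 0.809). Plin5, a droplet protein of oxidative tissues, was at 0.857, 0.913 and 0.765 CPM against 1.79, 1.49 and 2.15 CPM. Its groups did not overlap, at a level close to 1 CPM (log2 fold change 1.08, SE 0.42). Cidea, a droplet fusion protein, was at 2.48, 5.29 and 2.56 CPM against 13.8, 12.7 and 7.37 CPM (log2 fold change 1.72, SE 0.39, edgeR adjusted p = 0.670). Ucp3, the uncoupling protein best known from muscle, was at 0.541, 0.432 and 1.08 CPM against 7.57, 2.79 and 3.26 CPM (log2 fold change 2.72, SE 0.57, edgeR adjusted p = 0.575). Its neighbour on chromosome 7 is Ucp2, described above, whose groups overlapped. Summed over 6 brown adipocyte markers, the level was 7.22 to 10.1 CPM in wild-type mice and 15.3 to 19.8 CPM in IL-21isoTg mice, without overlap. Cidea is on that list, so the sum is not separate from the Cidea values above. The lack of overlap rests on Cidea, since the sum of the other markers overlaps between the genotypes. Cidea was the 1 gene without overlap among the 4 tested members of the list. The others tested, Cox8b, Cox7a1 and Dio2, were each lowest in IL-21isoTg mouse 2 and highest in IL-21isoTg mouse 3. The uncoupler Ucp1, too low to be tested, was at 0.0451 to 0.817 CPM against 0 to 1.12 CPM. The part of brown adipocytes in these differences was not tested. Skeletal muscle markers summed to 5.86 to 14.4 CPM in wild-type mice and 5.13 to 6.40 CPM in IL-21isoTg mice.

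Of the 25 other regulators tested, 19 had log2 fold changes above 0 and 6 below, beside 47.9% of all genes above 0. At an unadjusted p under 0.05 in edgeR, 6 were higher and 1 lower, together 28% beside 5.82% of all genes tested. Esrra, an orphan receptor that acts with PGC-1 alpha, was at 36.5, 52.5 and 48.8 CPM in wild-type mice and 76.7, 63.1 and 73.2 CPM in IL-21isoTg mice, without overlap (log2 fold change 0.63, SE 0.18, edgeR adjusted p = 0.809). Tfam, which maintains mitochondrial DNA, was at 21.4, 19.2 and 20.4 CPM against 15.01, 15.9 and 11.4 CPM, also without overlap but lower in IL-21isoTg mice (log2 fold change −0.52, SE 0.19). Acad9, needed for assembly of respiratory complex I, was listed under other mitochondrial beta-oxidation and not as a regulator. It was likewise lower in each IL-21isoTg mouse, at 24.5, 25.2 and 16.0 CPM against 35.6, 30.9 and 31.3 CPM (log2 fold change −0.57, SE 0.21). Malonyl-CoA is the natural brake on CPT1. Acaca, which makes it, was at 62.8, 35.8 and 48.1 CPM against 111, 90.2 and 48.0 CPM (log2 fold change 0.77, SE 0.33), and Mlycd, which breaks it down, at 9.02, 16.0 and 12.3 CPM against 23.7, 15.8 and 19.8 CPM (log2 fold change 0.67, SE 0.26). Acacb, which encodes the other enzyme that makes it, was at 22.7, 21.2 and 25.1 CPM against 35.8, 16.7 and 66.1 CPM (log2 fold change 0.77, SE 0.43). Groups overlapped for Acaca, Mlycd and Acacb, and edgeR adjusted p was 0.809 for each of these and for Tfam and Acad9.

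**Figure D5:**
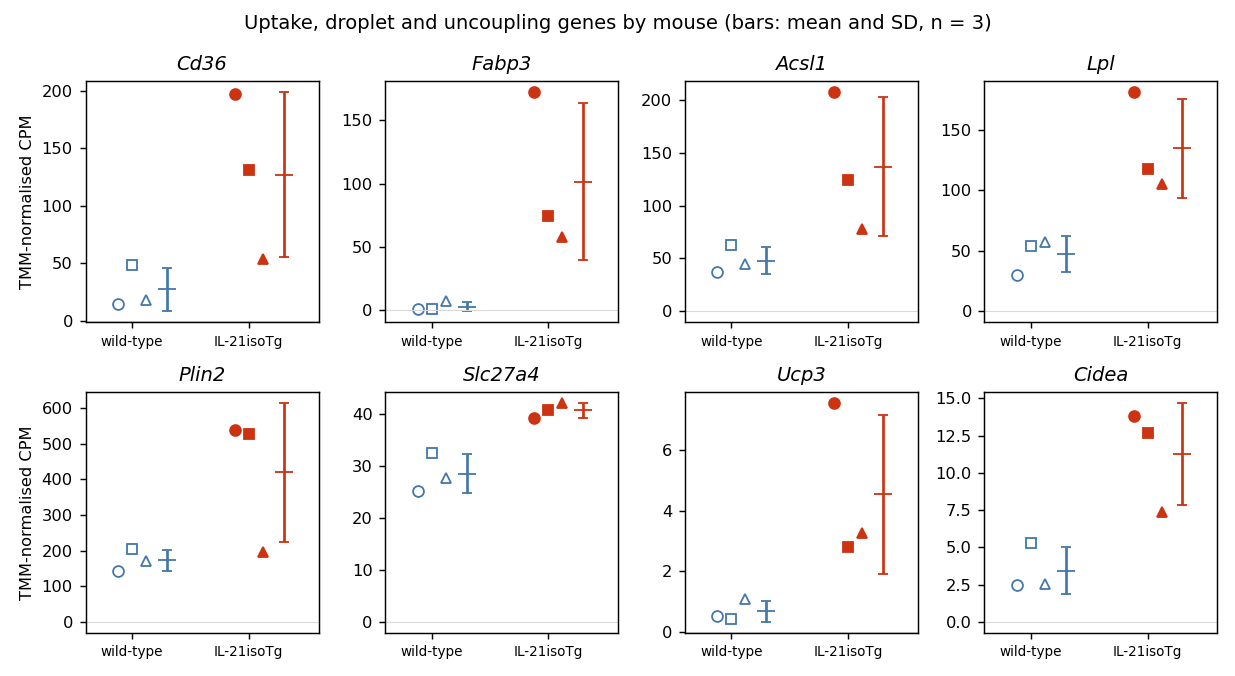
Level of 8 other pathway genes in each mouse as TMM-normalised CPM, with wild-type mice open, IL-21isoTg mice filled, and bars for the mean and SD of each genotype (n = 3). Cd36, Fabp3, Acsl1, Lpl, Slc27a4, Ucp3 and Cidea are higher in all 3 IL-21isoTg mice, and Plin2 overlaps through IL-21isoTg mouse 3 at 195 CPM.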

How the data were processed

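Per the labels, poly(A) RNA was made into directional libraries, and the submitters' processing notes name FastQC 0.11.7, Trimmomatic 0.38, HISAT2 2.1.0, SAMtools 1.9, featureCounts 1.6.3 and DESeq2 1.24.0, with build mm10. The annotation and the strand setting are not given in the sources used here. The authors deposited raw counts per gene, which were used. A normalized matrix and a table of the authors' own fold changes and p-values were not used.

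Counts were scaled by TMM, filtered (10 counts, 15 in total, filterByExpr) and fitted with edgeR 4.0.16 (robust quasi-likelihood, genotype only, all 6 libraries, R 4.3.3), with Benjamini-Hochberg adjustment over 17165 genes. SE is the absolute log2 fold change over the square root of F. limma 3.58.1 and DESeq2 1.42.0 served as alternatives. Exact permutation tests were two-sided, on log2(CPM + 0.5). Nothing in the labels says that libraries of a genotype came from separate litters or days, so p-values measure the spread between these libraries. The floor of 3 counts was 0.112 to 0.280 CPM and covers counting error only. Lengths are those of the GENCODE M21 principal transcript. Fits were tested on simulated counts. Members and lists were chosen with earlier results of these data known. Genes given in full included those with an unadjusted p under 0.05 and genes of the group without overlap. The highest per kilobase in each role of the group, the 5 regulators and Cd36 were also given. Some further pathway genes are not reported here and are left out of the counts over the other pathway genes. Promoters are RefSeq's.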

Additional observations from a re-analysis of the deposited data

How the results depend on the processing

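No gene of the group had an adjusted p under 0.05 in any setting run, the lowest being 0.548 without IL-21isoTg mouse 2. Over all genes, edgeR's quasi-likelihood test called 0 (999 at an unadjusted p under 0.05), 14 with no filter, 81 with the DESeq2 Wald test, 65 with the likelihood ratio test, 1 with the salivary covariate, and 0 to 6 when each mouse was left out. Genes of the group without overlap numbered 2 with DESeq2 size factors or TMM without salivary genes and 1 to 6 without each mouse. Those at an unadjusted p under 0.05 numbered 2 with the Wald test (Pdk4 added), 0 with limma-voom, 2 with the salivary covariate, and 0 to 2 without each mouse. Their median log2 fold change lay between −0.03 and 0.07 throughout. Other pathway genes at an unadjusted p under 0.05 numbered 10 to 25 without each mouse, the most without IL-21isoTg mouse 2, and 14 with all mice, and over all genes the count was 537 to 1566, again the most without IL-21isoTg mouse 2.
Signs reversed for Ppargc1a, at −0.46 with limma-voom, −0.47 with the salivary covariate and −0.18 with the replicate block. Acadl was 0.0075 with DESeq2 size factors, 0.0076 with the Wald test, 0.0091 with limma-voom, 0.011 with the block, 0.023 with TMM without salivary genes and 0.039 with the covariate. With TMM without salivary genes, Eci1 was 0.013, Hadh 0.0020 and Slc25a20 0.0035. With limma-voom, Eci1 was 0.0037 and Slc25a20 0.0027. With the covariate, Acaa2 was 0.0034, Cpt1a 0.0065, Echs1 −0.026, Eci1 0.038, Etfb 0.0027, Oxct1 −0.063 and Slc25a20 0.055. The cause was not tested. When each mouse was left out, log2 fold changes ran from −0.22 to 0.089 for Acaa2, −0.12 to 0.15 for Acadl, −0.0050 to 0.27 for Acadm, −0.036 to 0.096 for Acads, −0.24 to 0.17 for Acat1, −0.15 to 0.18 for Cpt1a, −0.048 to 0.15 for Echs1, −0.11 to 0.094 for Eci1, −0.38 to 0.074 for Eci2, −0.20 to 0.051 for Etfa, −0.19 to 0.088 for Etfb, −0.066 to 0.29 for Etfdh, −0.13 to 0.045 for Hadh, −0.13 to 0.13 for Hadha, −0.22 to 0.048 for Hadhb, −0.34 to 0.49 for Oxct1, −0.38 to 1.07 for Ppara, −1.02 to 0.64 for Ppargc1a and −0.14 to 0.19 for Slc25a20.
Same-numbered mice did not deviate together over all genes tested (correlations −0.22, 0.07 and −0.06). Deviations from a mean of 3 libraries cannot exclude a shared litter or day, so whether the numbers pair the mice is not known. With the replicate block, 657 genes had an unadjusted p under 0.05 and 0 an adjusted one, the group had 1 and the other pathway genes 11. At 3 mice a genotype and these totals, the 95% intervals of 24 of the 29 genes stayed within 1 log2 unit, and those of Pdk4, Ppargc1a, Ppara, Oxct1 and Ehhadh were wider.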
